A study of Mus musculus with 12 samples.

Results

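The expression of 10 extracellular matrix genes was followed in spinal cord next to a contusion: FN1, POSTN, FBN1, FBLN1, FBLN2, EFEMP1, ELN, MGP, SPARC and THBS1. They were chosen by name, as fibronectin, fibrillin and related matrix glycoproteins. The list was drawn up with earlier results of these data known, so counts over its members are descriptions and not a blind count. All 10 were found among the 13957 gene symbols of the deposited table, 9 of them at each site: FN1 was listed only above the lesion and FBN1 only below it, and the other site of each was not analysed here. RNA-seq was performed on 12 libraries in 4 groups of 3, from male mice that express human ApoE4, were injured by a contusion at thoracic level 9 at 4 months of age, and were studied 14 days later. The groups were labelled synj1+/+ (2 normal alleles of synaptojanin 1) or synj1+/- (1 inactive allele), each sampled just above and just below the lesion epicenter. Injury and ApoE4 were common to all 4 groups, and the inactive allele is carried by every cell of the animal. The study lists no sham animals for RNA-seq, and ApoE3 libraries were not analysed here.

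Matrix glycoproteins are the secreted adhesive and fibre-forming proteins that hold cells to collagen and to each other. Fibronectin, fibrillin-1 and elastin assemble into fibres, the fibulins bridge those fibres, and periostin, SPARC, thrombospondin-1 and matrix Gla protein are matricellular or regulatory proteins that bind fibres, cells and growth factors. In an intact cord most of these proteins are confined to meninges and vessels, and after injury fibroblasts lay them down in the fibrotic core of the scar, while SPARC is also made by glia and endothelium.

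The table gives 1 value for each gene and group, in FPKM plus 1 (fragments counted per length of transcript and scaled to the upper quartile of each library). The scale corrects for transcript length, so that levels can be compared between genes. Because the 3 libraries of a group are combined, no spread between mice can be given, no test was possible, and each value could rest on 1 library. The words higher and lower therefore describe group values. SYNJ1, the targeted gene, ran against the labels: above the lesion it had 1905 with the label synj1+/+ and 2404 with the label synj1+/-, and on the other side 1847 and 2593. The study states that mouse genotypes were checked by PCR, which does not test the labels of the libraries. Every direction given here depends on those labels. The cord was recognisable by SNAP25 of neurons, between 5239 and 6929 in the 4 groups, and GFAP of astrocytes, between 8485 and 12975, while only 1 of 5 oligodendrocyte markers, MOG, was listed.

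Below the lesion, the matrix glycoprotein genes were lower in mice labelled synj1+/-. All 9 listed genes had the lower value there, as 47.2% of all genes did, and 7 of them were lower by more than 2-fold, where 1.30% of the 12338 genes tested at that site were. The median log2 ratio of the 9 genes (labelled synj1+/- over synj1+/+) was -1.39, against 0.01 for all genes of the site. Among genes with a mean level under 10, where 1 of the 7 belongs (FBN1), the share lower by more than 2-fold was 2.85%, and among those with a mean of 10 or more it was 0.893%. Without FBN1, which has no value above, 6 of 8 were lower by more than 2-fold below the lesion. None of the 9 was higher by that much, as 0.162% of all genes were. At 3-fold, MGP and POSTN remained, 2 of 9, where 0.381% of all genes were lower. With 10 added to each value, which shrinks the ratios of low genes, 4 of the 9 passed 2-fold and the median was -0.86. The share of all genes was not counted with 10 added, or over only the genes listed at both sites.

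Promoters are shown for the 3 genes with the lowest ratio below the lesion among the 6 members in the RefSeq promoter table (POSTN, EFEMP1 and FBLN1). Each sequence is the 250 bases before the start of transcription in GRCm38.p6, 5′ to 3′ on the plus strand, which is the strand of all 3 genes. The windows lie at chr3:54360857-54361106 for POSTN, chr11:28852955-28853204 for EFEMP1 and chr15:85205699-85205948 for FBLN1. Capitals mark matches to 4 motifs searched on both strands: a TATA box (TATAAA), a GC box (GGGCGG), an AP-1 site (TGANTCA) and a CCAAT box (CCAAT).
POSTN: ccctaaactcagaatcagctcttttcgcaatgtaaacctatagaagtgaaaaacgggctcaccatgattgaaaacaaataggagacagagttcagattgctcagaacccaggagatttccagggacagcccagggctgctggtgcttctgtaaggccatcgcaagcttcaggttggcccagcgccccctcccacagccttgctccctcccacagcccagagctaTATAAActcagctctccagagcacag
EFEMP1: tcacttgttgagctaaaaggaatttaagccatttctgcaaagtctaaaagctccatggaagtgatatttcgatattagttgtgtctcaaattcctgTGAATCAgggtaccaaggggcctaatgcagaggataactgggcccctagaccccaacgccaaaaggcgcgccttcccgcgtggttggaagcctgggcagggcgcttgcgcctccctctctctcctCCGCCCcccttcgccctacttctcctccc
FBLN1: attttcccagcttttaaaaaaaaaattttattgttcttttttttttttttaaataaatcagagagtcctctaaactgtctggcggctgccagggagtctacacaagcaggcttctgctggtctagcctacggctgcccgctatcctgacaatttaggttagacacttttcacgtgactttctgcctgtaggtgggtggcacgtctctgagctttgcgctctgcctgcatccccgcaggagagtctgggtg

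The 3 windows shared no motif. POSTN had a TATA box at position -26 from the start, a motif found in 12.4% of the 32851 promoter windows of the table, and the window of its other RefSeq start, at position 54359267, held none of the 4 motifs. EFEMP1 had a match to the AP-1-like pattern (TGAATCA) at -154 and a GC box, on the minus strand, at -29. These patterns were found in 6.75% and 32.7% of windows. FBLN1 had none of the 4 motifs in this window, while the window of its other RefSeq start, 59 bases downstream, had a GC box at -11, and a CCAAT box, present in 33.8% of all windows, was found in none of the 3. These matches describe letters only. GC content was 52.0% for POSTN, 53.6% for EFEMP1 and 46.4% for FBLN1.

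**Figure D1:**
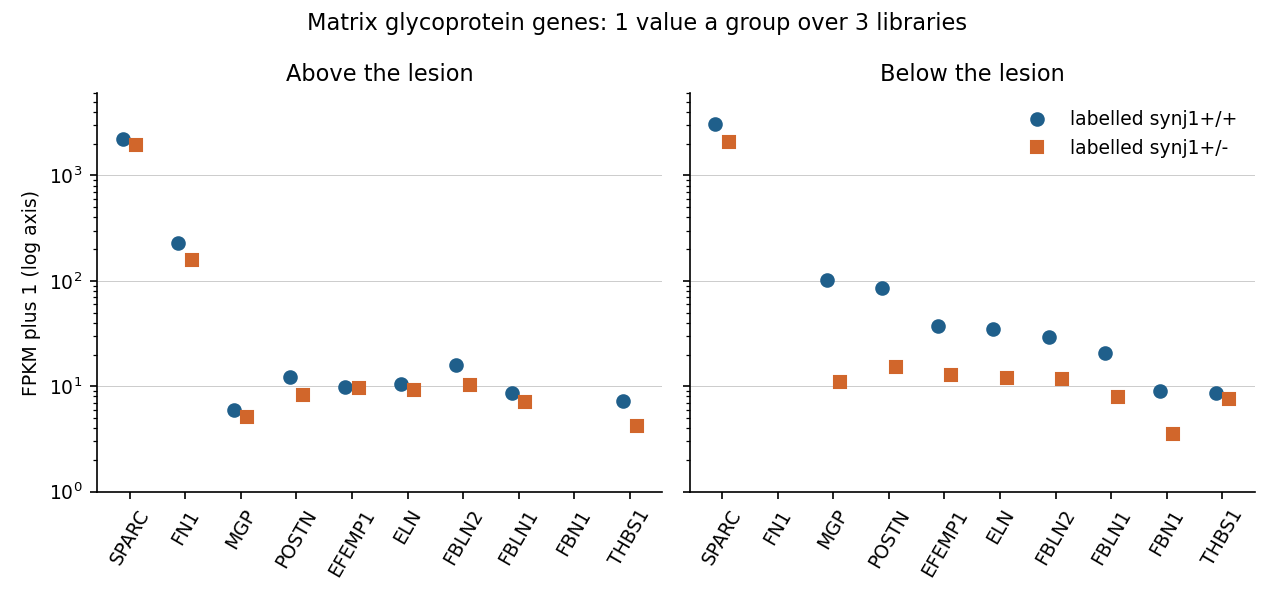
Level of each gene (FPKM plus 1, log axis) above and below the lesion in mice labelled synj1+/+ (circles) and synj1+/- (squares), with 1 value a group and no error bar because the libraries are combined. Below the lesion, MGP stands at 101.5 and 11.0 and POSTN at 85.9 and 15.1. Above it no gene differs by more than 2-fold, and the largest ratio is that of THBS1, at 7.17 and 4.18. FN1 has no point below and FBN1 none above.

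Matrix Gla protein and periostin had the largest differences. MGP, which binds bone morphogenetic proteins and restrains calcification of cartilage and vessel walls, lies on chromosome 6 from 136872435 to 136875823 (GENCODE M21, GRCm38). Below the lesion it reached 101.5 in mice labelled synj1+/+ and 11.0 in mice labelled synj1+/-, 9.21-fold lower (log2 ratio -3.20). This ratio ranked 4 from the lowest of the 12338 genes. Above the lesion its levels were 5.92 and 5.09, a log2 ratio of -0.22. POSTN, a fibroblast product that binds collagen and integrins and marks scar-forming tissue, lies on chromosome 3 from 54361109 to 54391037. Below the lesion it reached 85.9 in mice labelled synj1+/+ and 15.1 in mice labelled synj1+/-, a 5.70-fold lower value (log2 ratio -2.51) that ranked 15 from the lowest. Above the lesion the levels of POSTN were 12.2 and 8.28, with a log2 ratio of -0.56.

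The structural genes of elastic fibres and microfibrils had closely similar ratios below the lesion. ELN, the elastic core protein of vessel walls, lies on chromosome 5 from 134702593 to 134747323, and its level was 34.6 in mice labelled synj1+/+ and 11.9 in mice labelled synj1+/-, 2.90-fold lower (log2 ratio -1.53). FBN1, whose protein forms the microfibrils on which elastin is laid down, lies on chromosome 2 from 125300594 to 125507993. Its level was 9.11 and 3.51, 2.60-fold lower (log2 ratio -1.38). FBN1 was the lowest of the 9 genes in mice labelled synj1+/- below the lesion, and after 1 was subtracted from each value its log2 ratio was -1.69.

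The 3 fibulin genes lay in the same range. EFEMP1 (fibulin-3, on chromosome 11 from 28853204 to 28926743) had a level of 37.6 in mice labelled synj1+/+ and 12.9 in mice labelled synj1+/-, with a log2 ratio of -1.54. FBLN1 (chromosome 15 from 85205949 to 85286535), which binds fibronectin and laminin, had 20.6 and 7.87, with a log2 ratio of -1.39. FBLN2 (chromosome 6 from 91212455 to 91272540), a component of basement membranes and vessel walls, had 29.6 and 11.8, with a log2 ratio of -1.32. The 5 ratios of ELN, FBN1, EFEMP1, FBLN1 and FBLN2 thus spanned -1.54 to -1.32, and they ranked between 52 and 81 from the lowest of all genes.

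SPARC and THBS1 were the 2 genes that stayed within 2-fold below the lesion. SPARC, a collagen-binding glycoprotein that glia and endothelium also secrete, lies on chromosome 11 from 55394500 to 55423183. Its level there was 3112 in mice labelled synj1+/+ and 2069 in mice labelled synj1+/- (log2 ratio -0.59). THBS1, a thrombospondin that activates latent TGF-beta and is secreted by astrocytes and platelets, lies on chromosome 2 from 118111876 to 118127133. Its levels were 8.55 and 7.62 (log2 ratio -0.17), and 23.0% of all genes had a ratio as low or lower.

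**Figure D2:**
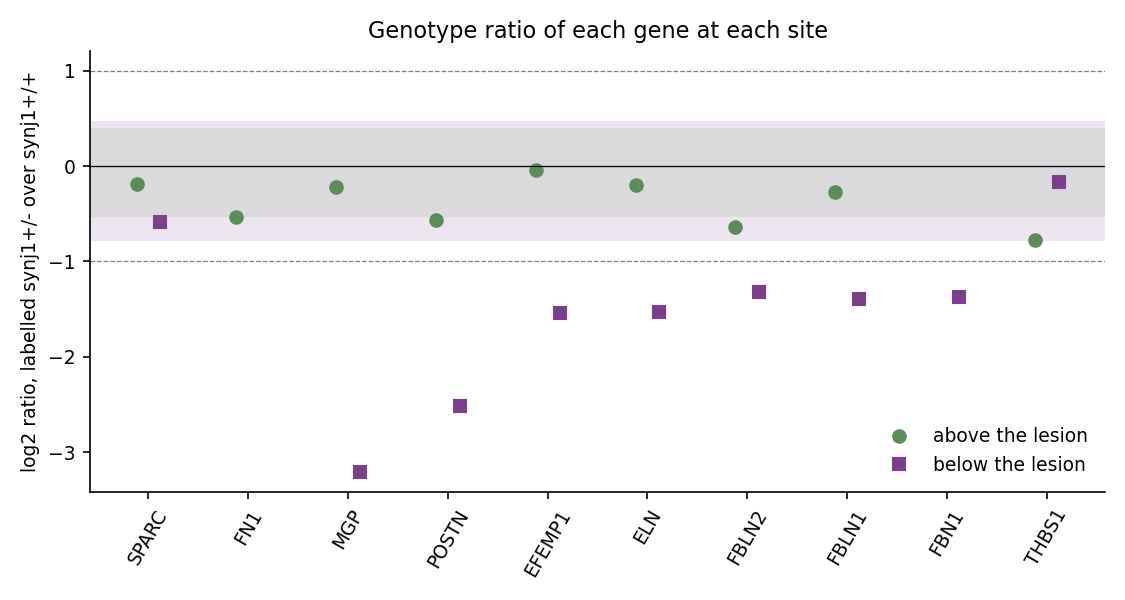
Log2 ratio of mice labelled synj1+/- over synj1+/+ for each gene above (circles) and below (squares) the lesion. The shaded bands hold the central 95% of all genes (from -0.53 to 0.40 above and from -0.78 to 0.47 below) and the dashed lines mark 2-fold; 7 of 9 squares lie under the lower dashed line and no circle does.

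Above the lesion, the same genes differed less. All 9 listed genes again had the lower value in mice labelled synj1+/-, but 0 of 9 passed 2-fold, where 0.564% of 13647 genes were lower and 0.132% higher by that much. At 1.5-fold, 2 of 9 (FBLN2 and THBS1) were lower, where 1.94% of all genes were. Their median log2 ratio was -0.27, against -0.00 for all genes, of which 51.0% were lower. FN1, the main adhesive glycoprotein of provisional matrix and the ligand of several integrins, lies on chromosome 1 from 71585520 to 71653200 and was measured only here. Its level was 230.3 in mice labelled synj1+/+ and 159.4 in mice labelled synj1+/-, 1.45-fold lower (log2 ratio -0.53).

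The order of the ratios above the lesion was not that found below. THBS1 had the lowest, with levels of 7.17 and 4.18 and a log2 ratio of -0.78, rank 125 of 13647 genes. FBLN2 followed with 15.9 and 10.2 (log2 ratio -0.63), then POSTN and FN1. These 4 genes lay outside the range that holds the central 95% of all genes, from -0.53 to 0.40. With 10 added to each value their order changed: FN1 was lowest at -0.50, then FBLN2 (-0.36), POSTN (-0.28) and THBS1 (-0.28). FBLN1 had levels of 8.54 and 7.07 (log2 ratio -0.27) and ELN had 10.5 and 9.17 (-0.20). EFEMP1 was nearly level, at 9.88 and 9.58 (log2 ratio -0.04). SPARC had 2200.1 and 1929 (log2 ratio -0.19).

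Set side by side, the genotype ratio was lower below than above the lesion in 7 of the 8 genes that both sites list, and in 5542 of all 12023 genes. Subtracting the ratio above from the ratio below gave -2.98 for MGP on the log2 scale, rank 4 from the lowest of 12023 genes, and -1.95 for POSTN. It was -1.50 for EFEMP1, -1.34 for ELN, -1.12 for FBLN1, -0.69 for FBLN2 and -0.40 for SPARC. THBS1, with a level under 10 in each group, went the other way, by 0.61, being lower mainly above the lesion. The median was -1.23 for the 8 genes and 0.02 for all genes. These differences between the sites were not tested. For RNA-seq, the study lists as many mice of each genotype as there are libraries of that genotype at each site. The labels do not say whether the libraries above and below came from the same mice.

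**Figure D3:**
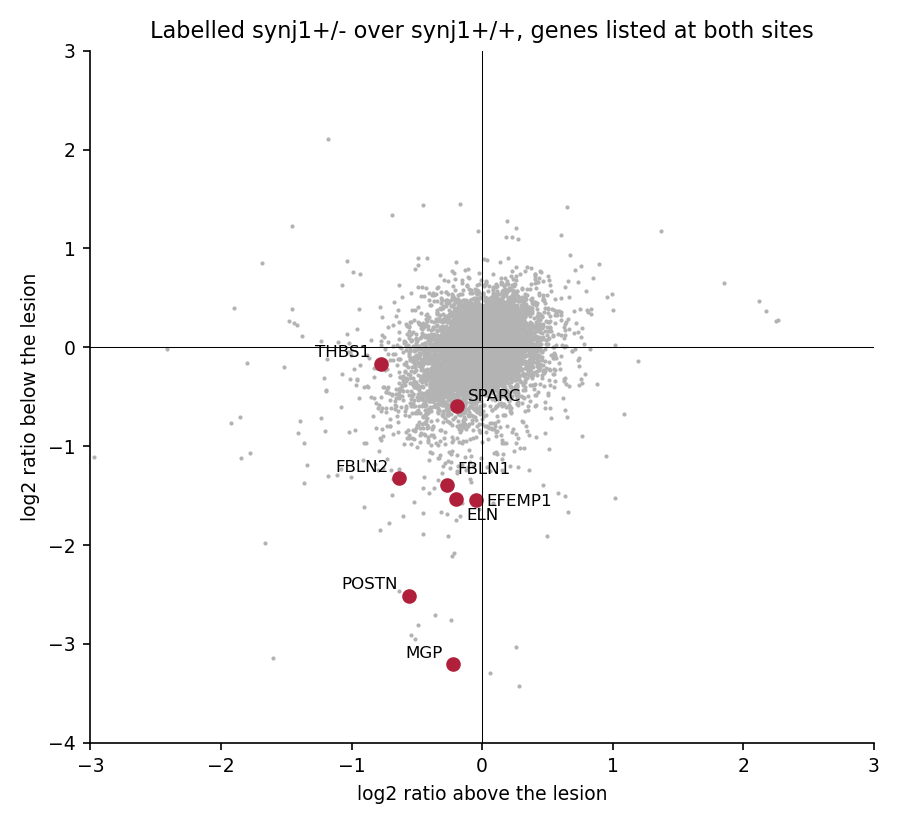
Log2 ratio of mice labelled synj1+/- over synj1+/+ above (x axis) and below (y axis) the lesion for the 12023 genes listed once at each site (grey; 4 lie outside the axes), with the 8 matrix glycoprotein genes in red. MGP at -0.22 and -3.20 and POSTN at -0.56 and -2.51 lie far below the cloud, and THBS1 at -0.78 and -0.17 lies to its left.

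The site difference was then described within each genotype. In mice labelled synj1+/+, all 8 genes were higher below than above the lesion, where 50.2% of all genes were lower below. Of the 8 genes, 5 were higher by more than 2-fold, where 0.990% of 12023 genes were. MGP was 17.1-fold higher below, the highest ratio of all genes (log2 ratio 4.10). Its level above was only 5.92, and with 10 added to each value its log2 ratio was 2.81. POSTN was 7.02-fold higher, EFEMP1 3.80-fold, ELN 3.29-fold and FBLN1 2.41-fold. FBLN2 was 1.86-fold, SPARC 1.41-fold and THBS1 1.19-fold higher. In mice labelled synj1+/-, the 8 genes were also higher below, where 44.5% of all genes were lower, but only MGP passed 2-fold, at 2.17-fold, where 0.316% of genes did. At 1.5-fold there were 3 (MGP, POSTN and THBS1), where 1.43% of genes passed, and at 3-fold 0, where 0.0998% did. POSTN and THBS1 were each 1.82-fold higher there, and the other 5 genes were 1.07-fold to 1.35-fold higher.

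The median log2 site ratio of the 8 genes was 1.49 in mice labelled synj1+/+ and 0.41 in mice labelled synj1+/-. The medians of all genes were -0.00 and 0.02, so centring on them hardly moves these values. The sites were normalised apart, so a level set across them rests on the scale of each site. The site ratio of mice labelled synj1+/+ and the genotype ratio below the lesion share the values of 1 group, synj1+/+ below, and are not independent. The gap between the site ratios of a gene in the genotypes equals, by arithmetic, the difference between its genotype ratios at the sites. It is the same result shown another way. That group had the highest value of the 4 for each of the 8 genes. The share of all genes for which it had the highest value was not counted.

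**Figure D4:**
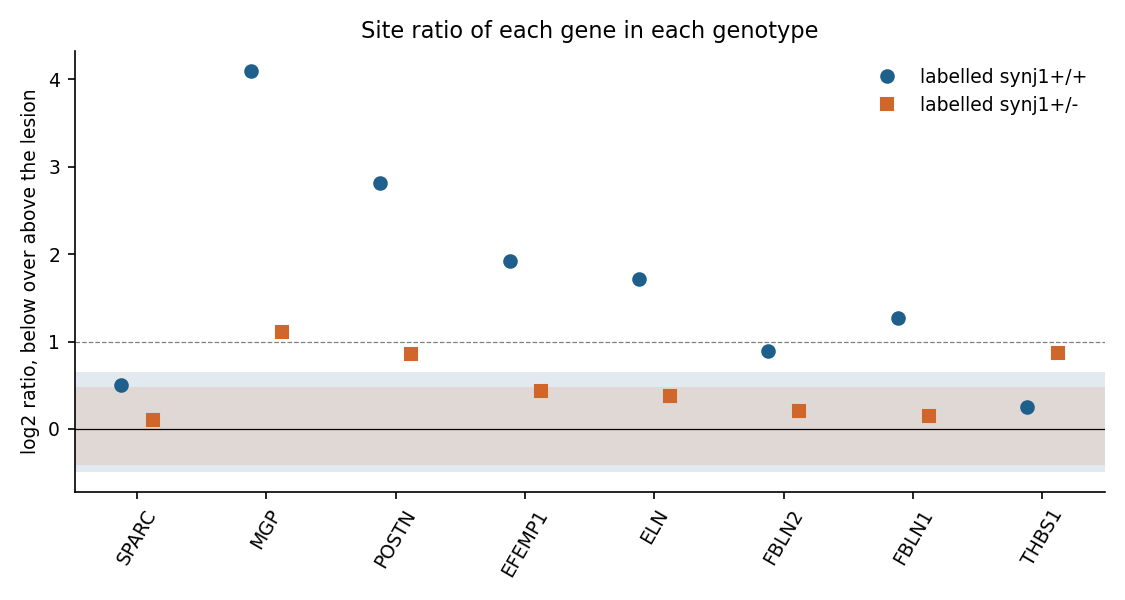
Log2 ratio of the level below over that above the lesion for the 8 genes listed at both sites, in mice labelled synj1+/+ (circles) and synj1+/- (squares), with bands for the central 95% of all genes and a dashed line at 2-fold. Circles lie above squares for 7 genes, by most for MGP (4.10 against 1.11), and THBS1 is the exception (0.25 against 0.87). Each gap equals the difference between the genotype ratios at the sites and is not a further result.

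In level, the genes fell far apart. SPARC stood in the top 1% of genes in every group and made up between 88.0% and 96.2% of the summed level of the 9 genes listed. FN1 was next above the lesion, and SPARC exceeded it 9.55-fold in mice labelled synj1+/+. MGP was the lowest of the 9 genes in mice labelled synj1+/+ above the lesion, at percentile 10.5 of all genes, and the second after SPARC in that group below it, at percentile 78.1. In mice labelled synj1+/- below the lesion POSTN was second and MGP stood in place 6. The summed level of the 7 genes other than SPARC that were listed at both sites was 70.2 above and 318.3 below in mice labelled synj1+/+, and 53.6 and 78.3 in mice labelled synj1+/-. Neighbours in these orders could not be separated, for want of a spread between libraries.

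Genes of most similar pattern were sought as those with the smallest Euclidean distance over the 4 log2 group values, centred on their mean, among 12023 genes. For MGP these were DCN (distance 0.34), COL1A1 (0.43) and ISLR (0.56), of which DCN encodes the collagen-binding proteoglycan decorin. For POSTN they were COL1A2 (0.20), LUM (0.31) and MFAP4 (0.31). For EFEMP1 they were RCN3 (0.08), ELN (0.17) and CPXM1 (0.21), and for ELN they were RCN3 (0.14), CPXM1 (0.16) and EFEMP1 (0.17), so that EFEMP1 and ELN were among each other's nearest genes. RCN3 encodes an endoplasmic reticulum protein of the secretory pathway. For FBLN1 the nearest were C1QTNF6, GJB2 and COL4A1, and for FBLN2 they were STAB1, XDH and TGM1. Distances rest on 4 values each.

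Partners of these glycoproteins were described from 5 lists. Below the lesion, 13 of the 55 genes listed were lower by more than 2-fold and 0 higher, and above it 0 of 54 passed 2-fold in either direction. Of all genes, 1.30% were lower and 0.162% higher by that much below the lesion, and 0.564% and 0.132% above it. The counts over 55 and 54 cover partly different genes: FBN2, LOX, LTBP2 and MFAP5, which are 4 of the 13, were listed only below the lesion. Over the 50 genes with values on both sides, 9 were lower by more than 2-fold below and 0 above. Elastic fibre and microfibril partners held 8 of the 13. All 14 genes of that list were lower in mice labelled synj1+/- below the lesion, as 47.2% of all genes were, with a median log2 ratio of -1.24. Over the 10 of them listed at both sites, 4 passed 2-fold below the lesion and the median was -0.61, against -0.24 for the same 10 above it. MFAP5, a microfibril-associated glycoprotein, had levels of 19.3 and 2.26 (log2 ratio -3.09). MFAP4 had 37.9 and 6.85 (-2.47). LOX, the enzyme that crosslinks elastin and collagen, had 16.6 and 4.33 (-1.94), and LTBP2, which binds fibrillin, had 5.99 and 1.84 (-1.70). LTBP3 and LTBP4, at 616.9 and 127.6 in mice labelled synj1+/+, had log2 ratios of -0.16 and -0.02.

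Basement membrane glycoproteins had a median log2 ratio of -0.77 below the lesion. Of their 10 genes, 2 were lower by more than 2-fold, where 1.30% of all genes were: HSPG2 (perlecan, levels 87.8 and 36.5) and NID1 (nidogen-1, 14.4 and 6.62). Other matricellular and adhesive glycoproteins had 0 of 13 genes past 2-fold and a median of -0.28. Their levels included 16.7 and 12.1 for TNC (tenascin-C) and 2718 and 2938 for SPARCL1, the SPARC relative that astrocytes secrete. TGF-beta and BMP ligands had 0 of 7 genes past 2-fold, with a median of -0.12.

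Receptors of these glycoproteins had 3 of 11 genes past 2-fold below the lesion, all lower, where 1.30% of all genes were. Their median log2 ratio was -0.41. ITGA5, the integrin chain that pairs with ITGB1 to bind fibronectin, had levels of 8.46 and 3.90 (log2 ratio -1.12), and ITGB1 had 50.9 and 34.9 (-0.55). CD36, a scavenger receptor that binds thrombospondin, had 96.4 and 36.7 (-1.39). Above the lesion CD36 had the higher value in mice labelled synj1+/-, at 48.0 and 66.3. STAB1, a scavenger receptor that takes up SPARC, had 21.2 and 9.01 (-1.23) below the lesion. CD47, a thrombospondin receptor of most cells, had 301.8 and 329.8 (log2 ratio 0.13).

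**Figure D5:**
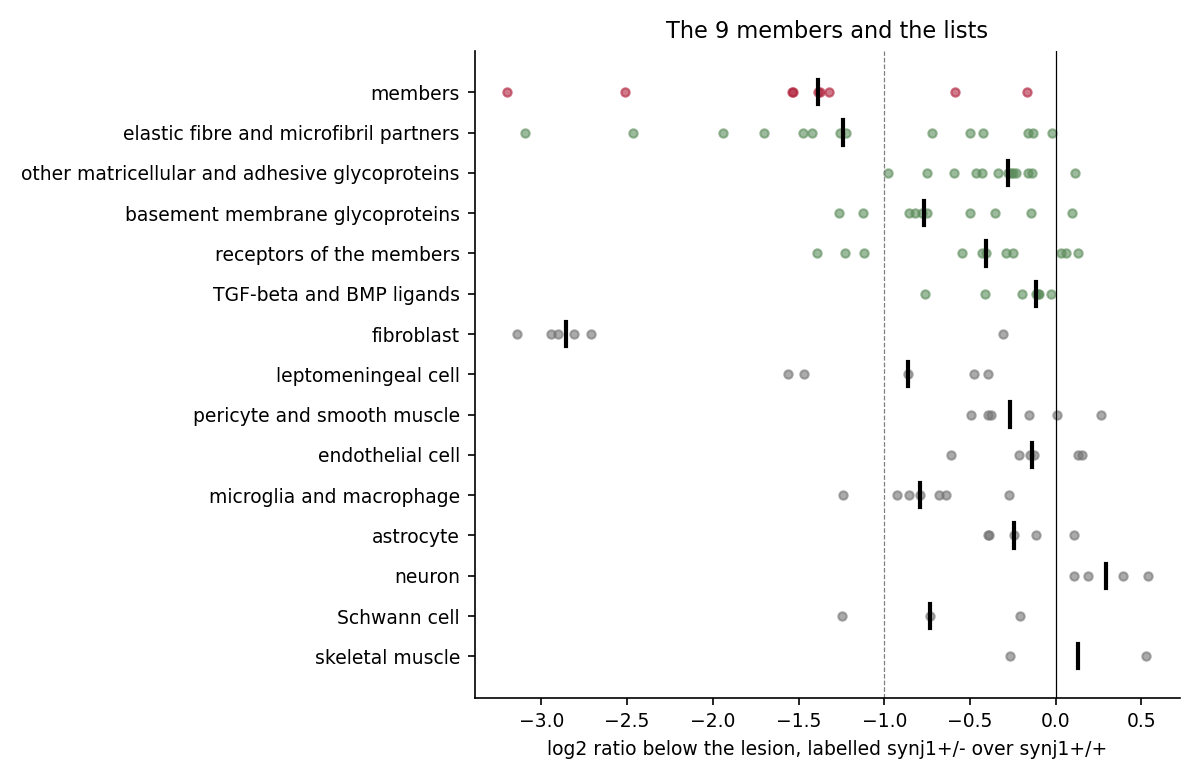
Log2 ratio below the lesion of each gene (points) and the median (black bars) for the 9 matrix glycoprotein genes (red), the 5 partner lists (green) and the cell type marker lists with 2 or more genes listed (grey), with a dashed line at 2-fold lower. The medians were -1.39 for the 9 genes, -1.24 for elastic fibre partners (4 of the 14 listed only below) and -2.86 for fibroblast markers, and the neuron markers lie to the right of 0.

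Cell type markers also differed between the genotypes. Of all genes, 47.2% were lower in mice labelled synj1+/- below the lesion, 1.30% by more than 2-fold. Above the lesion these shares were 51.0% and 0.564%. Of 6 fibroblast markers, all were lower in mice labelled synj1+/- below the lesion, 5 by more than 2-fold, and their summed level was 423.2 in mice labelled synj1+/+ and 104.5 in mice labelled synj1+/-. Their median log2 ratio was -2.86, and MGP lay 0.35 under it, POSTN 0.35 over it, and the 5 genes from ELN to FBLN2 between 1.32 and 1.53 over it. PDGFRA, also a marker of oligodendrocyte precursors, was the fibroblast marker nearest to 0, at -0.31. Above the lesion the fibroblast markers had a median of -0.50, 1 of 6 past 2-fold, with sums of 95.6 and 79.6. In mice labelled synj1+/+ their sum was 4.43-fold higher below than above the lesion, and in mice labelled synj1+/- it was 1.31-fold higher. In bulk tissue, fewer cells of a type and less RNA per cell cannot be told apart.

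Leptomeningeal markers were lower in 5 of the 5 listed below the lesion, 2 by more than 2-fold, with sums of 2390.5 and 1368. Microglia and macrophage markers were lower in 7 of 7, 1 by more than 2-fold, with sums of 2814 and 1559. Above the lesion microglia and macrophage markers were lower in 7 of 8, 0 past 2-fold, with a median log2 ratio of -0.54 and sums of 1637 and 1099, where the matrix glycoprotein genes had a median of -0.27. Schwann cell markers were lower in 3 of 3 below the lesion, 1 by more than 2-fold (EGR2, 42.4 and 17.8), with a median of -0.74. Their sums of 1083 and 901.9 were mostly PMP22, at 976.0 and 845.3. Pericyte and smooth muscle markers had sums of 159.5 and 141.6, and endothelial markers 213.7 and 204.4, with 0 of 6 past 2-fold in each list. Astrocyte markers were lower in 4 of 5 and higher in 1, with 0 past 2-fold. Their sums of 13690 and 10479 were mostly GFAP, at 11117 and 8485. Neuron markers had sums of 6757 and 8699, mostly SNAP25, at 5272 and 6929. Cartilage, bone and skeletal muscle markers had sums under 10 where listed (ACAN alone for cartilage and bone, at 9.48 and 9.90). The part of these cell types in the ratios of the matrix glycoprotein genes was not tested.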

How the data were processed

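RNA was extracted with TRIzol from cord segments beside the lesion, and TruSeq libraries were sequenced. Per the labels and the study's methods, the authors removed reads at random to the smallest library of each site, aligned with STAR 2.5.4b to GRCm38.p6 and ran Cuffdiff 1.3.0, scaling to the upper quartile. Values in the authors' deposited table are FPKM, taken as FPKM plus 1 because the lowest of its values is exactly 1, with 1 value a group over 3 libraries and only for genes that were tested. Its other columns, with log2 fold changes and p and q values, are the authors' own comparison and were not used, nor was their shorter list, which holds only p-values and fold changes. Library depth cannot be read from the table.

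Samples were grouped by genotype and site in their titles. For each gene, the log2 ratio of 2 group values was computed as deposited, and a ratio past 2-fold in either direction was counted. The share of all genes is given beside the counts of members, and for each site where the lists are described. No test was made, because the table holds no single libraries. Ratios that share a group are not independent. For the 3 symbols listed on 2 rows of a site, both rows were kept in counts and left out between sites. The genes named are the 10 members, SYNJ1, up to 4 genes past 2-fold from each of 5 partner lists, and the 3 genes of nearest pattern; LTBP3, LTBP4, TNC, SPARCL1, ITGB1, CD47, FBN2, PDGFRA, EGR2, PMP22, ACAN, SNAP25, GFAP and MOG were named after their values were seen. There were also 11 marker lists. Counts were also made over the genes of each list that both sites hold, an addition made after seeing the data. Members and lists were chosen with earlier results of these data known. The alternatives were 1.5-fold and 3-fold, 1 subtracted from or 10 added to each value, centring on the median gene, and a mean of 10 or more. Positions are from GENCODE M21 and promoters from RefSeq, which held 6 of the 10 genes. Python 3.11.15, numpy 2.4.6, pandas 2.3.3 and matplotlib 3.10.9 were used, and the counts were checked on simulated data.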

Additional observations from a re-analysis of the deposited data

How the results depend on the processing

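Only centring on the median of all genes could change the direction of a ratio, and it reversed none. The other alternatives keep every direction by construction, so they bear on counts and sizes only. At 1.5-fold, 2 genes (FBLN2 and THBS1) were lower above the lesion, and 3 were higher below than above in mice labelled synj1+/-. At 3-fold, 2 genes (MGP and POSTN) were lower below the lesion in the genotype comparison, and 0 were higher below in mice labelled synj1+/-. Adding 10 to each value, which shrinks the ratios of low genes, left 4 genes past 2-fold below the lesion with a median log2 ratio of -0.86, left a median site ratio of 0.92 in mice labelled synj1+/+, and left 0 genes past 2-fold between sites in mice labelled synj1+/-. For that last comparison, the count was 2 (MGP and THBS1) with 1 subtracted. With a mean of 10 or more it was 0 of 5, where 0.167% of all such genes passed. That filter leaves out MGP, the only gene past 2-fold, and THBS1. Centring on the median of all genes moved no count or median past 1.5-fold. Counting only genes listed at both sites, an alternative chosen after seeing the data, left 6 of 8 lower by more than 2-fold below the lesion with a median of -1.46, and 0 of 8 above it with a median of -0.25. No share of all genes was counted with 10 added, 1 subtracted or centring, or, between genotypes, over only the genes listed at both sites. Leaving out each replicate was not run, since libraries are combined. No paired analysis was possible because the columns carry no replicate. Without library values, precision is unknown, and a single library could set any of these values.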
